A study of Mus musculus with 24 samples.

Results

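The 7 genes Angptl4, Angptl6, Angptl8, Lipc, Lpl, Vldlr and Lrp1 were described as a group that acts on triglyceride in plasma lipoproteins. They were taken by symbol from 52636 genes listed in the files, and all 7 were found and were among the 15490 genes that passed the filter on low counts. The list of names carries no threshold, but it was chosen by role with the measured diet differences and time courses of these libraries in view, so the p-values below place each gene among all genes tested and are not independent support. RNA recovered with polysomes, that is, with several ribosomes on 1 transcript, was sequenced from livers of C57BL/6 mice that were 5 months old. Mice of the restricted group (CR) received 30% fewer calories for 3 months from an age of 2 months, and mice of the control group (AL) ate ad libitum. Livers of each diet were taken at zeitgeber times (ZT, hours on the light schedule) 2, 6, 10, 14, 18 and 22, with 2 libraries in each of the 12 groups and 24 libraries in all. No genetic change is named for any group. No source used here gives the hours of feeding in CR. The labels do not say that the libraries of a group came from separate animals, so p-values measure the spread between libraries, which may be technical. Total RNA was not analysed here, so the amount of a transcript and its loading onto polysomes cannot be told apart.

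Triglyceride travels in blood in chylomicrons from the gut and in very low density lipoprotein (VLDL) from the liver. Lipoprotein lipase (Lpl) on the capillary wall of fat and muscle splits it, and the remnant particles return to the liver, where hepatic lipase (Lipc) trims them and receptors such as Lrp1 take them up. Proteins of the angiopoietin-like family set where this happens: ANGPTL4 inhibits LPL in fat and is induced by fasting, while ANGPTL8 is induced by feeding and insulin and acts against LPL of heart and skeletal muscle. ANGPTL6 is secreted by liver and has been linked to energy expenditure. The VLDL receptor (Vldlr) helps LPL to unload particles in muscle and fat and is normally scarce in liver.

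On the mouse genome GRCm38, Angptl4 lies on the minus strand of chromosome 17 from 33773750 to 33781830. Angptl6 (chromosome 9, 20873808 to 20879727, minus strand), Angptl8 (chromosome 9, 21835510 to 21837347, plus strand) and Lipc (chromosome 9, 70798128 to 70952226, minus strand) share a chromosome. Lpl lies on the plus strand of chromosome 8 from 68880491 to 68907448, Vldlr on the plus strand of chromosome 19 from 27216484 to 27254231, and Lrp1 on the minus strand of chromosome 10 from 127538161 to 127621148. The libraries carry no strand, and exons of Angptl6 overlap exons of A230050P20Rik on the opposite strand, so reads within the overlap cannot be told apart. Angptl8 lies within the span of Dock6 on the opposite strand without overlap of exons. Of the words of 50 bases in the exons, 1.14% of those of Lpl and 0% of those of the other 6 genes also occur in transcripts of other genes, read in the same orientation. Words shared with the opposite strand were not searched, so the overlap of Angptl6 with A230050P20Rik is not counted in these shares.

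The windows before the transcription starts of Angptl8 and Vldlr are shown because these genes had the widest range over time in CR and the largest difference between diets. They are windows of 250 bases that end at the base before the start, 5′ to 3′ on the plus strand, from RefSeq on GRCm38.p6, at chr9:21835260-21835509 for Angptl8 and chr19:27216234-27216483 for Vldlr, of which the latter is the first of 2 starts listed. Neither held a motif that was searched. The window of the second Vldlr start, at chr19:27216770-27217019, held a CCAAT box and a GC box, both on the minus strand and in capitals, whose first bases lie at -78 and -42 from that start, and no other motif searched.
Angptl8: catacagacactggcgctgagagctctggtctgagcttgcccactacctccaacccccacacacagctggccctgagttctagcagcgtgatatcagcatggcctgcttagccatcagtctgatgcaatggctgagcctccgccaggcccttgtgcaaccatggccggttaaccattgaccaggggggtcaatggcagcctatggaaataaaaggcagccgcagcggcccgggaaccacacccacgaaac
Vldlr: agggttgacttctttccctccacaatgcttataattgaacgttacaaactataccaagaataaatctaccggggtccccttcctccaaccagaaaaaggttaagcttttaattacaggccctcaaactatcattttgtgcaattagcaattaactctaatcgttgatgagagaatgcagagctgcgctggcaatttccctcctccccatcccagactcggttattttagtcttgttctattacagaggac
Vldlr, second start: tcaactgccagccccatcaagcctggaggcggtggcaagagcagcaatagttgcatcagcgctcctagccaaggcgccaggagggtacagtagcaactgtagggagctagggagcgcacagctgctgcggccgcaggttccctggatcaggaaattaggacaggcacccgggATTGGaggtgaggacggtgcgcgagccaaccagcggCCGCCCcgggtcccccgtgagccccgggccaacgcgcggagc
The motifs were searched on both strands. They were the E-box CACGTG, the D-box TTATGTAA, the nuclear receptor half-site AGGTCA, its direct repeats with 1 base and with 4 bases between the copies, and the sterol regulatory element TCACNCCAC. The core promoter elements searched were the CCAAT box, the TATA box TATAAA and the GC box GGGCGG. The half-site is contained in both repeats. Of 32851 promoter windows of this length, 6.02% held the E-box, 0.819% the D-box, 14.0% the half-site, 0.0335% the first repeat, 0.0152% the second and 1.05% the sterol element. The CCAAT, TATA and GC boxes were present in 33.8%, 12.4% and 32.7%. The absence of a motif says only that its letters are not in that window.

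Each library held 13.8 M to 60.8 M counted reads, of which 1.02% to 62.2% fell in ribosomal RNA features. All 9 hepatocyte markers tested were counted in every library, Alb with at least 185910 reads. Markers of Kupffer cells, the liver macrophages, were lower in CR for 11 of 14 genes and higher for 1, with summed levels of 257 to 734 counts-per-million (CPM) in AL and 141 to 257 CPM in CR. Fewer cells of a type and less RNA per cell cannot be told apart in these samples. Libraries CR ZT6 2 and CR ZT18 2 went against the other CR libraries. The median log2 difference of 14 male-biased liver genes from the AL mean was -1.57 and -0.82 in them, against -6.82 to -4.27 in the other 10 CR libraries and -1.38 to 0.71 in AL. For 11 female-biased genes it was 1.26 in CR ZT6 2 and 2.66 in CR ZT18 2, against 2.87 to 4.23 in the other CR libraries and -0.27 to 0.31 in AL. On the male-biased list CR ZT18 2 lay within the AL range and CR ZT6 2 just below it. On the female-biased list both lay between the diets, CR ZT18 2 near the other CR libraries. Whether a mix-up of labels or samples touches them was not tested, and CR values that rest on them are those of the libraries so labelled. Skeletal muscle markers summed to 90.0 CPM in CR ZT6 1, 435 CPM in CR ZT18 1 and 631 CPM in CR ZT18 2, against 0 to 8.46 CPM in the other 21 libraries. Adipocyte markers summed to 124 CPM in CR ZT18 2 and to 7.50 to 28.5 CPM elsewhere. Acute phase transcripts summed to 63717 CPM in AL ZT22 2C and to 6478 to 18955 CPM in the other 23 libraries.

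Averaged over the 6 time points, Vldlr rose in CR by 3.92 ± 0.54 on the log2 scale (SE; edgeR quasi-likelihood test, Benjamini-Hochberg adjusted p = 2.92e-05), and the other 6 genes did not pass the test. That is 1 of 7 members, beside 12.7% of all genes tested, 5.60% higher and 7.05% lower in CR. Angptl4 and Angptl8 had a 24 h rhythm in CR, 2 of 7 members beside 1.94% of all genes, and no member had one in AL, where 0.420% of genes did (at an unadjusted p under 0.05, 2 of 7 members and 10.4% of genes; with DESeq2, 0 members). At single time points no member passed the test in edgeR, beside 0.562%, 0.387%, 0.742%, 1.70%, 0.562% and 0.936% of all genes from ZT2 to ZT22, and DESeq2 called 1, Lpl at ZT18. At an unadjusted p under 0.05 the members numbered 1, 3, 1, 3, 4 and 3 of 7, beside 7.47%, 13.7%, 10.8%, 14.2%, 10.5% and 14.3% of genes. The members whose 2 CR libraries lay apart from the 2 AL libraries numbered 4, 2, 1, 4, 5 and 3 of 7 from ZT2 to ZT22, beside 50.3%, 41.8%, 38.5%, 45.1%, 37.1% and 50.4% of all genes. Levels below are CPM on library sizes that were scaled with edgeR's TMM factors.

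**Figure D1:**
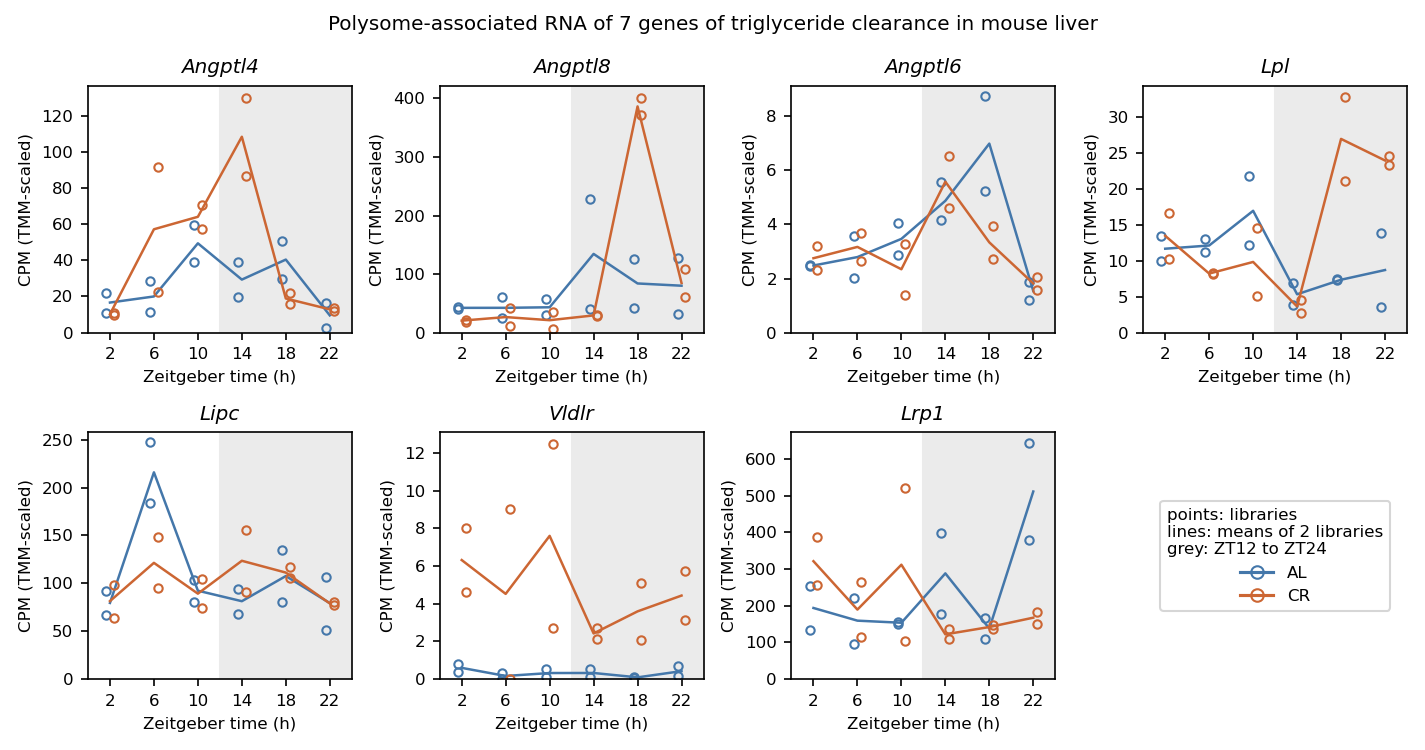
CPM of each gene (vertical axis, from 0) by zeitgeber time in hours, with 1 point per library and a line through the means of 2 libraries. Grey marks ZT12 to ZT24. Angptl4 is highest in CR at ZT14, Angptl8 in CR at ZT18, and Vldlr is above all AL libraries in 11 of 12 CR libraries.

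Per kilobase of annotated exon, Angptl8 had the highest mean level in AL at 82.1 ± 69.6 CPM per kb (SD, n = 12), followed by Lipc at 50.9 ± 26.0 and Lrp1 at 13.6 ± 9.03 CPM per kb. Angptl4 followed at 7.79 ± 4.84, Angptl6 at 2.33 ± 1.32, Lpl at 0.990 ± 0.483 and Vldlr at 0.0317 ± 0.0269 CPM per kb. In CR Angptl8 (110 ± 161 CPM per kb) and Lipc (47.0 ± 13.1) had the highest means, Angptl4 (12.8 ± 11.6) and Lrp1 (11.8 ± 7.27) followed, and Vldlr at 0.478 ± 0.350 was lowest. In both diets the gap between Angptl8 and Lipc was less than the SD of Angptl8, and that between Lrp1 and Angptl4 less than the SD of Lrp1. Angptl8 was above Lipc in CR only at ZT18 (447 against 51.7 CPM per kb) and ZT22 (98.0 against 36.8). From ZT2 to ZT14 Lipc was higher, with means of 37.9 to 57.5 CPM per kb against 23.5 to 33.9 for Angptl8. The exon length counts all annotated transcripts, so genes with long rare isoforms read low on this scale.

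Angptl4 encodes the inhibitor of LPL that fasting induces. In AL its levels were 11.1 and 22.2 CPM at ZT2, 28.8 and 11.2 at ZT6, 39.1 and 59.8 at ZT10, 19.8 and 38.9 at ZT14, 29.9 and 51.0 at ZT18, and 2.42 and 16.7 at ZT22. In CR they were 10.9 and 9.49 CPM at ZT2, 22.6 and 91.9 at ZT6, 57.5 and 70.8 at ZT10, 86.8 and 130 at ZT14, 15.6 and 22.2 at ZT18, and 12 and 13.8 at ZT22. Both CR libraries of ZT14 were above every AL library, and the CR mean then was 10.7 times that of ZT2, the lowest CR group. In the order of CR means, ZT14 (109 CPM), ZT10 (64.2 CPM) and ZT6 (57.3 CPM) were followed by ZT18 (18.9 CPM), ZT22 (12.9 CPM) and ZT2 (10.2 CPM). The libraries of ZT10 and ZT6 overlapped, and those of the other neighbours in this order did not. In AL no group lay apart from its neighbour in the order of means, which ran from 49.5 CPM at ZT10 to 9.54 CPM at ZT22.

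The fitted 24 h cosine of Angptl4 in CR had an amplitude, from mean to peak, of 1.73 on the log2 scale with a peak at ZT11.2 (edgeR adjusted p = 0.00942). It kept its call without CR ZT6 2 and CR ZT18 2 (1.68, adjusted p = 0.00335). In AL the amplitude was 0.93 with a peak at ZT12.6 (edgeR adjusted p = 0.39), and the difference in rhythm between the diets did not pass the test (unadjusted p = 0.12, edgeR adjusted p = 0.848). For no gene did the rhythm differ between diets at this threshold, although 6.49% of genes and 1 of 7 members, Lpl, had an unadjusted p under 0.05, and DESeq2 called 6 genes. CR minus AL was 1.89 ± 0.66 on the log2 scale at ZT14 (SE; edgeR adjusted p = 0.179), 1.51 ± 0.65 at ZT6 (edgeR adjusted p = 0.316) and -1.10 ± 0.65 at ZT18 (edgeR adjusted p = 0.572). The value at ZT6 rests on CR ZT6 2, with 91.9 CPM, and was 0.16 ± 0.72 without CR ZT6 2 and CR ZT18 2 (SE; edgeR adjusted p = 0.972). The average difference of 0.40 ± 0.26 (edgeR adjusted p = 0.359) passed the threshold only when AL ZT22 2d was left out, which left AL ZT22 2C alone in its group (0.72, adjusted p = 0.0494). AL ZT22 2C held the lowest level of Angptl4, 2.42 CPM, and was the library with the highest acute phase transcripts; their part in this value was not tested.

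Angptl8 encodes the secreted protein that feeding induces. In AL its levels were 40.9 and 43.7 CPM at ZT2, 24.3 and 60.3 at ZT6, 29.4 and 57.1 at ZT10, 41.0 and 228 at ZT14, 126 and 42.3 at ZT18, and 32.3 and 128 at ZT22. In CR they were 18.5 and 22.2 CPM at ZT2, 41.9 and 11.1 at ZT6, 35.8 and 6.54 at ZT10, 29.7 and 29.0 at ZT14, 371 and 402 at ZT18, and 108 and 61.1 at ZT22. The 2 CR libraries of ZT18 were above all other 22 libraries, and 4 CR libraries were below every AL library. The CR mean of ZT18, 386 CPM, was 19.0 times that of ZT2, the lowest CR group at 20.4 CPM. Both ZT18 and ZT22 (84.7 CPM) lay apart from the next group in the order of CR means, whereas ZT14, ZT6, ZT10 and ZT2 overlapped their neighbours. In AL all neighbours overlapped, from 134 CPM at ZT14 to 42.3 CPM at ZT2.

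In CR the cosine of Angptl8 had an amplitude of 1.88 on the log2 scale and a peak at ZT18.7 (edgeR adjusted p = 0.00942). Without CR ZT6 2 and CR ZT18 2 it was 1.57 and did not pass (edgeR adjusted p = 0.0683). CR ZT18 1 alone, which keeps the CR pattern of male-biased genes, held 371 CPM. Skeletal muscle markers were also high in both CR libraries of ZT18 and adipocyte markers in 1 of them, as given above, and their part in the Angptl8 level was not tested. The AL cosine of Angptl8 had an amplitude of 0.82 and a peak at ZT16.8 (edgeR adjusted p = 0.606). Its rhythm did not differ between the diets by the test (unadjusted p = 0.0875, edgeR adjusted p = 0.821). CR minus AL was -2.19 ± 0.81 on the log2 scale at ZT14 (SE; edgeR adjusted p = 0.21) and 2.20 ± 0.81 at ZT18 (edgeR adjusted p = 0.301). Averaged over time points it was -0.44 ± 0.32 (edgeR adjusted p = 0.412). The arithmetic means had the other order, 94.8 ± 139 CPM in CR and 71.0 ± 60.2 CPM in AL (SD, n = 12), since the 2 libraries of ZT18 weigh more in them than on the log scale.

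The fitted cosines in CR peaked at ZT11.2 for Angptl4 and ZT18.7 for Angptl8, and a difference between these peaks was not tested. The highest CR group was ZT14 for Angptl4 and ZT18, the next time point sampled, for Angptl8. Across the 12 group means of log2 CPM their correlation was r = -0.32, a description over groups whose libraries share diet and time. Whether the diet difference varied with time was tested for all genes, and 0 passed in edgeR after adjustment, beside 8.63% at an unadjusted p under 0.05. The unadjusted p of the interaction was 0.0242 for Angptl4 (edgeR adjusted p = 0.541), 0.0218 for Angptl8 (0.533), 0.00449 for Lpl (0.449) and 0.0228 for Lrp1 (0.538). For Angptl6, Lipc and Vldlr it was 0.27, 0.28 and 0.806. DESeq2 called the interaction for 188 genes, and of the members for Lpl only (adjusted p = 0.0471).

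Angptl6 was low in all groups. In AL its levels were 2.48 and 2.48 CPM at ZT2, 2.01 and 3.58 at ZT6, 4.05 and 2.88 at ZT10, 4.16 and 5.59 at ZT14, 8.75 and 5.24 at ZT18, and 1.88 and 1.2 at ZT22. Levels in CR were 2.30 and 3.20 CPM at ZT2, 3.68 and 2.66 at ZT6, 1.40 and 3.29 at ZT10, 4.62 and 6.55 at ZT14, 3.95 and 2.72 at ZT18, and 2.06 and 1.57 at ZT22. The highest groups were ZT18 in AL and ZT14 in CR, and ZT22 was lowest in both diets. No CR library was above or below all AL libraries. The average difference was -0.14 ± 0.19 on the log2 scale (SE; edgeR adjusted p = 0.714), and the AL amplitude was 0.73 with a peak at ZT14.9 (edgeR adjusted p = 0.347). These levels rest on 14 to 234 counts per library, and how reads in the overlap with A230050P20Rik were counted was not examined.

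Lpl encodes the lipase that the angiopoietin-like proteins inhibit. In AL its levels were 9.96 and 13.4 CPM at ZT2, 11.3 and 13.0 at ZT6, 21.8 and 12.2 at ZT10, 3.84 and 6.84 at ZT14, 7.46 and 7.27 at ZT18, and 13.8 and 3.61 at ZT22. Levels in CR were 16.7 and 10.3 CPM at ZT2, 8.29 and 8.17 at ZT6, 14.6 and 5.08 at ZT10, 2.80 and 4.48 at ZT14, 21.1 and 32.9 at ZT18, and 23.3 and 24.7 at ZT22. The CR libraries of ZT18 and ZT22 were all above the AL libraries of the same hours, 3 of these 4 were above every AL library, and ZT14 was the lowest group in both diets. The CR means ran from 27.0 CPM at ZT18 and 24 CPM at ZT22, which overlapped, to 3.64 CPM at ZT14, a ratio of 7.42.

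CR minus AL of Lpl was 1.87 ± 0.52 on the log2 scale at ZT18 (SE; edgeR adjusted p = 0.136) and 1.46 ± 0.52 at ZT22 (edgeR adjusted p = 0.202). Without AL ZT22 2C and AL ZT10 1, which left 1 AL library at ZT22, the value at ZT22 was 2.74. DESeq2 called the difference at ZT18 (1.91, adjusted p = 0.0279). The average difference was 0.28 ± 0.21 (edgeR adjusted p = 0.442). The CR cosine of Lpl had an amplitude of 0.93 and a peak at ZT21.5 (edgeR adjusted p = 0.116), and DESeq2 called it (0.92, adjusted p = 0.0451). Leaving out CR ZT10 1 raised the amplitude to 1.38 and the call was made (edgeR adjusted p = 0.0201). Muscle and fat are the main sites of Lpl. Skeletal muscle markers were high in both CR libraries of ZT18, and adipocyte markers in CR ZT18 2 but not in CR ZT18 1 (14.8 CPM). In the CR libraries of ZT22 skeletal muscle markers summed to 0.174 and 1.82 CPM and adipocyte markers to 12.6 and 20.6 CPM. The part of either tissue in the Lpl levels was not tested. Endothelial markers, the cell type on which LPL is anchored, summed to 118 to 228 CPM in AL and 116 to 228 CPM in CR.

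Lipc encodes hepatic lipase, which hepatocytes secrete onto the sinusoid wall. In AL its levels were 66.8 and 92.3 CPM at ZT2, 248 and 184 at ZT6, 104 and 80.7 at ZT10, 68.2 and 94.4 at ZT14, 135 and 80.4 at ZT18, and 51.7 and 107 at ZT22. In CR they were 64.2 and 98.7 CPM at ZT2, 148 and 94.8 at ZT6, 105 and 73.9 at ZT10, 90.9 and 156 at ZT14, 117 and 106 at ZT18, and 80.8 and 77.3 at ZT22. The AL libraries of ZT6 were above the other 22 libraries, and no CR library was above or below all AL libraries. The average difference of -0.03 ± 0.16 on the log2 scale (SE; edgeR adjusted p = 0.961) was the smallest of the 7, and its sign turned with the size factors. At ZT6 CR minus AL was -0.83 ± 0.40 (edgeR adjusted p = 0.361), and -0.55 ± 0.50 without CR ZT6 2 and CR ZT18 2 (adjusted p = 0.711). The amplitude was 0.42 in AL and 0.23 in CR (edgeR adjusted p = 0.559 and 0.779).

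Vldlr encodes the receptor that binds triglyceride-rich particles carrying apolipoprotein E. In AL its levels were 0.384 and 0.806 CPM at ZT2, 0.330 and 0 at ZT6, 0.549 and 0.093 at ZT10, 0.533 and 0.114 at ZT14, 0.048 and 0.134 at ZT18, and 0.156 and 0.687 at ZT22. The CR libraries held 8.02 and 4.61 CPM at ZT2, 9.04 and 0 at ZT6, 2.74 and 12.5 at ZT10, 2.15 and 2.70 at ZT14, 5.09 and 2.09 at ZT18, and 3.14 and 5.72 at ZT22. Thus 11 of 12 CR libraries were above every AL library, and CR ZT6 2 had no count. The 12 CR and 12 AL libraries lay wholly apart for 0 of 7 members, beside 0.284% of all genes. The zero counts of AL ZT6 2 and CR ZT6 2 allow up to 0.192 and 0.199 CPM each, taking 3 counts as the limit, for counting error only.

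The mean of Vldlr was 4.81 ± 3.53 CPM in CR and 0.320 ± 0.271 CPM in AL (SD, n = 12 each), a ratio of 15.1. Without CR ZT6 2 the CR mean was 5.25 ± 3.34 CPM (SD, n = 11) and the ratio 16.4. The AL values rest on 0 to 40 counts per library and the CR values above 0 on 66 to 299. Without CR ZT6 2 and CR ZT18 2 the average difference was 4.17 on the log2 scale (edgeR adjusted p = 2.06e-07). Leaving out CR ZT6 1 left its group with no count, and the fit of group means then gave 2.20 with edgeR adjusted p = 1.00. A model with additive terms of diet and time point without that library, chosen after seeing the data, gave 3.51 ± 0.51 (SE; edgeR adjusted p = 3.33e-05).

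At single time points CR minus AL of Vldlr was 2.71 to 5.09 on the log2 scale, with edgeR adjusted p of 0.124 to 0.412. Without CR ZT6 2 and CR ZT18 2, an alternative added with results known, edgeR called ZT6 (5.44, adjusted p = 0.0165), ZT10 (4.49, adjusted p = 0.0113) and ZT18 (5.59, adjusted p = 0.0116). That fit leaves out the CR library with 0 counts of Vldlr, and the 1 CR library left at ZT6 and at ZT18 is assumed to vary like the other groups, so these calls are no support for a difference at single times. The order of CR means ran from 7.60 CPM at ZT10 to 2.42 CPM at ZT14, and no group lay apart from its neighbour. The amplitude in CR was 0.51 (edgeR adjusted p = 0.792). Muscle and heart also express Vldlr. Skeletal muscle markers summed to 0.174 to 3.74 CPM in CR ZT2, ZT10, ZT14 and ZT22, where Vldlr was 2.15 to 12.5 CPM, and to 90.0 CPM in CR ZT6 1, which held 9.04 CPM of Vldlr. Heart muscle markers summed to 0.172 to 2.19 CPM in AL (median 0.458) and 0.958 to 5.94 CPM in CR (median 2.22). Of the 3 tested 1 was higher in CR, and Nppa had 0 counts in all 24 libraries. Markers of stellate cells and fibroblasts were higher in CR for 5 of 12 genes and lower for 0, with sums of 158 to 398 CPM in AL and 351 to 592 CPM in CR. The part of these cell types in the Vldlr level was not tested.

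**Figure D2:**
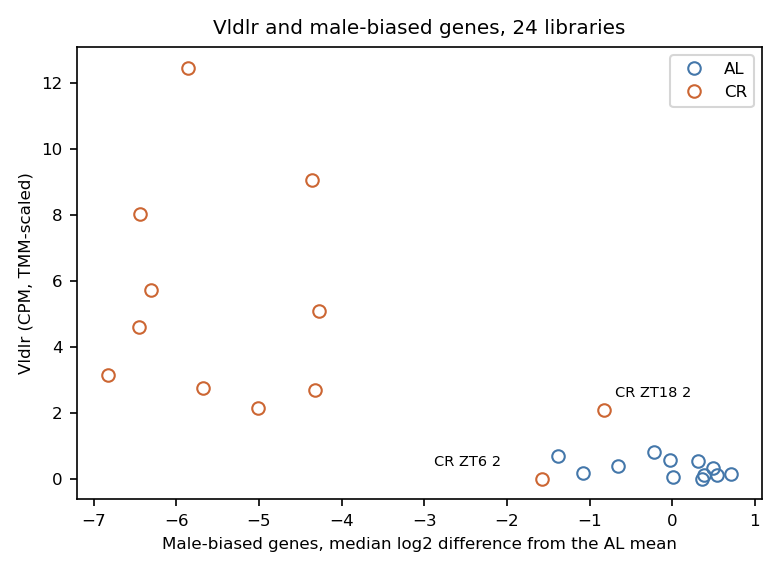
Vldlr in CPM (vertical axis, from 0) against the median log2 difference of 14 male-biased liver genes from the AL mean, with 1 point for each of 24 libraries. CR ZT6 2 and CR ZT18 2 lie near the AL libraries on the horizontal axis, at -1.57 and -0.82, with Vldlr at 0 and 2.09 CPM.

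Male-biased genes are those that pulsed growth hormone keeps higher in male liver. Of these 14 genes 14 fell in CR, and of 11 female-biased genes tested 11 rose, lists that were chosen with results of these data known. The 10 CR libraries with male-biased genes at -4.27 or below held 2.15 to 12.5 CPM of Vldlr. The 2 other CR libraries, with male-biased genes at -1.57 and -0.82, held 0 and 2.09 CPM. Whether both patterns share a source was not tested.

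Lrp1 encodes a large receptor of hepatocytes for remnants and many other ligands. In AL its levels were 134 and 254 CPM at ZT2, 96.4 and 222 at ZT6, 151 and 156 at ZT10, 178 and 398 at ZT14, 165 and 110 at ZT18, and 645 and 378 at ZT22. In CR they were 386 and 256 CPM at ZT2, 265 and 114 at ZT6, 103 and 520 at ZT10, 108 and 136 at ZT14, 148 and 136 at ZT18, and 151 and 184 at ZT22. AL was above CR in both libraries at ZT14 and ZT22 and below at ZT2. The average difference was -0.13 ± 0.24 on the log2 scale (SE; edgeR adjusted p = 0.792), and CR minus AL was -1.61 ± 0.59 at ZT22 (edgeR adjusted p = 0.215).

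The level of Lrp1 moved with the share of reads in ribosomal RNA features. Over 24 libraries log2(CPM + 0.5) and this share had Pearson's r = 0.787 (permutation test, 100000 resamples, two-sided p = 1e-05, the smallest they can give; adjusted over 7 genes 7e-05) and Spearman's rho = 0.779 (permutation p = 3e-05, adjusted 0.00021). Within AL r was 0.892 and within CR 0.690 (12 libraries each), and without the 2 libraries farthest from the median share it was 0.743. For the other 6 genes the adjusted permutation p of r was 0.302 to 0.829, although Angptl8 had r = 0.624 within AL and -0.617 within CR. Both AL libraries of ZT22 had shares of 61.3% and 62.2%, against 2.94% and 43.8% in CR. With a covariate for these reads, the log2 of their ratio to the rest, CR minus AL of Lrp1 at ZT22 was -0.86 ± 0.53 (SE; edgeR adjusted p = 0.593). Acute phase transcripts were also highest in AL ZT22 2C, the library with the highest Lrp1, and their part was not tested.

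**Figure D3:**
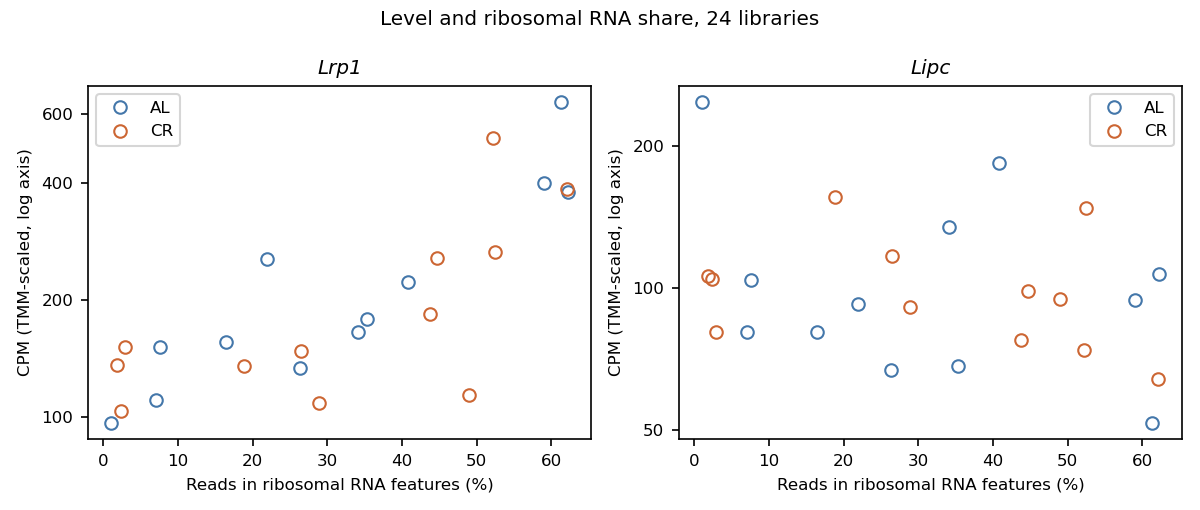
CPM on a log axis of Lrp1 (left) and Lipc (right) against the percentage of counted reads in ribosomal RNA features, with 1 point per library. Lrp1 is higher in libraries with a larger share (r = 0.787), while for Lipc r is -0.289.

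The other genes of the pathway were read from lists written with earlier results known. Their counts on the diet average stand beside 12.7% of all genes, and the median difference of all genes was -0.02 on the log2 scale. Of the angiopoietin-like family, Angptl1, Angptl2 and Angptl7 did not pass the test and had means of 0.324, 4.94 and 0.155 CPM in CR.

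Of 13 genes for cofactors, maturation and anchoring of LPL, 1 rose and 0 fell, with a median of 0.29. Pcsk5, a proprotein convertase that cleaves LPL and endothelial lipase, rose by 1.14 ± 0.19 on the log2 scale (SE; edgeR adjusted p = 0.000266), from 3.52 ± 1.58 to 7.49 ± 2.71 CPM (SD, n = 12). Gpihbp1, the anchor of LPL on capillaries, differed by 0.48 ± 0.16 (SE; edgeR adjusted p = 0.0556). The difference was 0.33 ± 0.16 for Apoa5, an activator of LPL (adjusted p = 0.184), and 0.29 ± 0.20 for Apoc3, an inhibitor (adjusted p = 0.391). Apoc2, the required cofactor of LPL, was counted at only 0.154 CPM in AL and 0.351 CPM in CR, next to 2097 and 2694 CPM of the neighbouring Apoc4 and 12153 and 13418 CPM of Apoc1. Whether so low a count of Apoc2 gives the level of its transcript was not tested. Lmf1, which folds LPL in the endoplasmic reticulum, differed by -0.32 ± 0.15 (SE; edgeR adjusted p = 0.173).

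Of 14 other genes of remnant and LDL uptake, 4 rose and 1 fell, with a median of 0.20. Sdc1, a heparan sulfate proteoglycan that binds remnants on hepatocytes, rose from 90.1 ± 22.3 to 154 ± 65.3 CPM (SD, n = 12; 0.70 ± 0.14 on the log2 scale, SE, edgeR adjusted p = 0.00159). Sorl1 rose by 1.05 ± 0.23, Cd36, a fatty acid transporter, by 1.12 ± 0.27 and Hspg2, the proteoglycan perlecan, by 0.57 ± 0.17. Sort1, a sorting receptor that binds apolipoprotein B, had a change of -1.12 ± 0.21 (SE; edgeR adjusted p = 0.000984). Cd36 and Hspg2 were named after their values were seen. Of 7 other genes for proteins related to LRP1 tested, 0 rose and 2 fell. Lrp2 had a change of -3.80 ± 0.40 and Lrp11 of -2.13 ± 0.34 on the log2 scale (SE), with AL means of 1.13 and 1.37 CPM.

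On the side of supply, 3 of 12 genes of VLDL assembly and secretion rose and 2 fell, with a median of 0.01. Ces3a and Ces3b, carboxylesterases of the endoplasmic reticulum, fell by 3.04 ± 0.23 and 1.61 ± 0.18 on the log2 scale (SE; edgeR adjusted p = 7.33e-09 and 2.18e-06). Tm6sf2, which helps to load VLDL with lipid, rose by 0.93 ± 0.18 (edgeR adjusted p = 0.00134). Ces1g and Ces1d, named after their values were seen, were the other genes that rose. Of 22 genes listed for PPARα, the fasting receptor that also induces Angptl4, 8 rose and 1 fell, with a median of 0.32. The list holds Ppara, the gene of the receptor itself, beside its targets. Acot2 rose by 2.25 ± 0.28, Cyp4a14 by 4.09 ± 0.57 and Pdk4 by 1.25 ± 0.18 (SE), while Fabp1, named after its values were seen, fell by 1.08 ± 0.23. The CR rhythm was called for 2 of the 22 PPARα genes, Ppara and Cpt1a, with peaks at ZT9.19 and ZT9.45, beside 1.94% of all genes. The AL rhythm was called for 1, Pdk4 (amplitude 2.22 on the log2 scale, edgeR adjusted p = 0.000307), beside 0.420% of all genes, and the CR rhythm of Pdk4 had an adjusted p of 0.127.

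The genes most like each member were sought by the correlation of 12 group means of log2 CPM among about 5378 abundant genes, and are given with no test. The likeness to Angptl4 was greatest for Sds, a serine dehydratase of amino acid breakdown (r = 0.944), Pnpla2, the adipose triglyceride lipase (r = 0.929), and Dmac2 (r = 0.922). Among those closest to Angptl8 were Hnrnpc (r = 0.850) and Tmem150a (0.849). For Vldlr they were Cyp3a59 (r = 0.954), Sult1d1 (0.928) and Bche (0.92), each called higher in CR on the diet average. Genes picked for likeness to Vldlr tend to be higher in CR by that choice, so these calls are no separate support. Those closest to Lrp1 were Fat1 (r = 0.953), Adgrl2 (0.938) and Itprid2 (0.898). For Lipc they were Psma6, Txndc12 and H2-K1 (r = 0.92 to 0.932), for Angptl6 Gadd45gip1, Sra1 and Aspscr1 (r = 0.910 to 0.947), and for Lpl Scly, Imp4 and Cs (r = 0.822 to 0.849). Among the members themselves r ranged from -0.60, between Angptl4 and Lrp1, to 0.63, between Angptl4 and Angptl6.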

How the data were processed

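The deposited values are raw counts of reads for each gene, made by the authors with HTSeq on GRCm38.p5 after FastQC, with DESeq2 also named, per the submitters' processing notes. The aligner is not given in the sources used here. RNA was selected by poly(A) tail and libraries are not stranded, per the labels. Symbols for 52489 of 52636 identifiers came from the GENCODE annotation, and promoter windows from RefSeq for 5 of 7 members.

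Counts were tested with edgeR 4.0.16 in R 4.3.3 (TMM, filterByExpr, 1 model of 12 group means over 24 libraries, Benjamini-Hochberg adjustment over 15490 genes, threshold 0.05). Rhythms were a 24 h cosine and sine per diet. SE was the log2 change over the square root of F. The 363 ribosomal RNA features were the annotated ribosomal RNA genes plus features that attract such reads, a set chosen after seeing the data. Depth was 13.8 M to 60.8 M counted reads per library. Procedures were tested on simulated counts, where only the diet average and the CR rhythm were scored. Of 100 genes given a change of 1 on the log2 scale, 83 and 79 were called. Of 197 calls on the diet average 15 were false, and of 191 on the CR rhythm 12. Alternatives included DESeq2 1.42.0.

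Members and lists were chosen with earlier results of these data known. Named beyond the members were up to 3 called genes of smallest p per pathway list, any gene of the angiopoietin-like and LPL cofactor lists, and the 3 genes most like each member. Some genes of these lists are not reported here.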

Additional observations from a re-analysis of the deposited data

How the results depend on the processing

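Counts of called genes, and of the 7 members, depended on the filter and the tool. The diet average called 1960 genes and, with AL ZT22 2C and AL ZT10 1 left out, 1293. Summed over the 6 time points, where a gene counts once for each time point, there were 758 calls, 0 of them of members. With no low-count filter there were 2732 calls, 13 of them of members. DESeq2 made 2255 calls, 1 of them of a member (Lpl at ZT18). The calls of Vldlr made without CR ZT6 2 and CR ZT18 2 are given above. The interaction called 0 genes, against 709 and 4 members with no filter and 188 and 1 member with DESeq2. The AL rhythm called 65 genes and 0 members, against 447 and 2 with no filter, 267 and 0 with DESeq2, and 42 once AL ZT22 2C and AL ZT10 1 were left out. The CR rhythm called 301 genes and 2 members, against 1244 genes and 3 members with no filter and 729 genes and 3 members with DESeq2, where Lpl was added. Without CR ZT6 2 and CR ZT18 2 it called 1 member, since the Angptl8 amplitude was then 1.57 (edgeR adjusted p = 0.0683). The rhythm difference called 0 genes, against 295 and 2 members with no filter and 6 with DESeq2. The average difference of Lipc, -0.03, turned to 0.0035 with size factors of the DESeq2 kind, 0.0064 with a filter of 1 CPM in 12 libraries, 0.0036 with DESeq2 and 0.0219 without CR ZT6 2 and CR ZT18 2. The cause of these differences was not tested.

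Leaving out 1 library at a time gave 1412 to 2708 genes on the diet average and 0 (without CR ZT6 1) to 2 members (without AL ZT22 2d). It gave 491 (without CR ZT14 1) to 1316 (without CR ZT10 1) genes and 0 to 3 members (without CR ZT6 2) over time points, 0 to 41 genes (without CR ZT6 1) in the interaction, 36 to 96 and 154 to 607 genes in the AL and CR rhythm, and 0 to 5 in the rhythm difference. The average difference ranged from 2.20 to 4.88 for Vldlr and from -0.11 to 0.0654 for Lipc. For Vldlr the lowest value came without CR ZT6 1 and the highest without AL ZT6 1. Each of these fits left a ZT6 group with no count of Vldlr, so both ends are poorly determined. The CR amplitudes of Angptl4 (1.56 to 1.86) and Angptl8 (1.64 to 2.38) kept their calls in all 24 such fits.

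Over most pairs of groups, libraries of the same number did not deviate together (55 pairs of groups, correlation -0.254 to 0.514, median -0.0026, 9 above 0.1). AL ZT22 was left out of this check, which cannot settle whether the number pairs libraries of some groups. With the number as a replicate block the diet average called 1790 genes, the interaction 1 and the rhythm difference 1, and no call of a member changed. The AL ZT22 libraries, 2C and 2d, carry the same number and lay in the same block of that fit. Depth limits Vldlr most, with 0 to 40 counts per library in AL.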
